A study of Homo sapiens with 3 samples.

Results

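The genes described here are LIN28A and LIN28B, which encode RNA-binding proteins that block maturation of the let-7 microRNAs, with 8 genes of the same axis or of microRNA processing. DROSHA, DGCR8, DICER1 and AGO2 encode the core machinery, TUT4 and DIS3L2 encode enzymes that tail and degrade the let-7 precursor, and HMGA2 and IGF2BP1 are let-7 targets. The genes were listed by name and matched through their Ensembl identifiers to GENCODE symbols, and all 10 were found among the 58051 genes in each count file. The data are total RNA-seq of the established human embryonic stem cell line H9, wild type and untreated, grown on Vitronectin-XF in Essential 8 Flex medium, with ribosomal RNA depleted before sequencing. The study set transcription in these cells beside DNA replication origins and DNA breaks. There is 1 condition with 3 replicates and no control group, so no difference between conditions could be tested. Whether the replicates came from separate cultures is not given in the sources used here, so their spread may be technical.

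A microRNA starts as a hairpin within a longer primary transcript. The Microprocessor, made of the nuclease DROSHA and its partner DGCR8, releases the hairpin in the nucleus, DICER1 removes its loop in the cytoplasm, and the mature strand is loaded into an Argonaute protein such as AGO2. LIN28 proteins bind the terminal loop of let-7 precursors, where a short GGAG motif is a known contact. LIN28A is known to recruit a terminal uridylyltransferase such as TUT4, after which the uridylated precursor is degraded by the exonuclease DIS3L2. Mature let-7 represses mRNAs that pair with its seed, LIN28A and LIN28B among them, so the axis is a double-negative loop, and LIN28 is known as a factor of pluripotent and fetal cells.

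The mature let-7 RNAs are shown first, since the seed is what the target genes pair with. The 12 let-7 hairpin genes listed, including MIR98, carry the same seed at bases 2 to 8, here in capitals, and 11 mature names in the RefSeq table for GRCh38.p14 share it. Outside the seed the family members differ at a few positions.
hsa-let-7a-5p: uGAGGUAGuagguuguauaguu
hsa-let-7d-5p: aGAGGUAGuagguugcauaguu
hsa-let-7e-5p: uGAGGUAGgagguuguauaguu
hsa-let-7i-5p: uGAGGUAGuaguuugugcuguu
hsa-miR-98-5p: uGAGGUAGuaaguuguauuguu

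The terminal loops are the part of the hairpin that LIN28 contacts, and 4 of the shorter ones are printed from the end of the 5′ arm to the start of the 3′ arm, with GGAG in capitals.
let-7a-2 loop: uagaauuacaucaagGGAGauaa
let-7c loop: uagaguuacacccugGGAGuuaa
let-7e loop: gaGGAGgacacccaaGGAGauca
let-7a-3 loop: uggggcucugcccugcuaugggauaa
The loop of let-7e holds the motif in 2 places and that of let-7a-3 holds none. Of the 11 let-7 family hairpins with both mature arms in the table, 8 had GGAG in the loop, or 72.7%, and the 3 without it were let-7a-3, let-7b and miR-98. Among all 739 RefSeq hairpins with both arms, 60 had it, or 8.12%. The let-7 loops had a median length of 32 nt and those of all hairpins 16 nt, so a match by length alone is more likely in the former. These are letters in the reference and not a measurement of binding.

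Seed matches were sought on the sense strand of the 3′UTR of each gene's Ensembl canonical transcript in GENCODE release 44. An 8mer was CTACCTCA, a 7mer-m8 was CTACCTC without the final A, and a 7mer-A1 was TACCTCA without the first C, so that each position was counted once under its longest form. The windows below are read 5′ to 3′ on the strand of the gene in GRCh38, with the match in capitals. They are the 8mers of LIN28A, LIN28B, HMGA2 and IGF2BP1, which are the LIN28 genes and the named targets.
LIN28A, 905 nt after the stop codon, chr1:26427349-26427378, plus strand: cacagcctattgaaCTACCTCAtttttgcc
LIN28B, 44 nt after the stop codon, chr6:105078813-105078842, plus strand: cccggttgcaaagtCTACCTCAtgcaagta
LIN28B, 2653 nt after the stop codon, chr6:105081422-105081451, plus strand: tttacagcaaaaggCTACCTCAtagttgat
HMGA2, 21 nt after the stop codon, chr12:65963299-65963328, plus strand: ccaacgttcgatttCTACCTCAgcagcagt
IGF2BP1, 1632 nt after the stop codon, chr17:49051062-49051091, plus strand: gtgtgcgaagtaaaCTACCTCAaggtatga
IGF2BP1, 4269 nt after the stop codon, chr17:49053699-49053728, plus strand: agcagtgctagtaaCTACCTCAcagagccc
IGF2BP1, 4923 nt after the stop codon, chr17:49054353-49054382, plus strand: tataaatggattaaCTACCTCAatccttac

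At least 1 match was found in 7 of the 10 genes, beside 15.9% of the 19238 protein-coding genes with a 3′UTR. An 8mer was found in 5 of the 10 and in 3.76% of all. HMGA2, a chromatin architectural protein of embryonic cells, had 7 matches in 2999 nt, of which 1 was an 8mer, 3 were 7mer-m8 and 3 were 7mer-A1. In only 2 genes of the annotation did the count reach 7, the other being TRIM71, itself on the list of let-7 targets, with 8. LIN28B had 5 matches in 4549 nt and IGF2BP1, an mRNA-binding protein of embryonic and tumor cells, had 5 in 6701 nt. A count of 5 or more was found in 11 genes. AGO2 had 3 matches, DICER1 had 2, and LIN28A and TUT4 had 1 each, while DROSHA, DGCR8 and DIS3L2 had none of these letters in this window. Over the 10 genes there were 0.638 matches per kb, against 0.111 per kb over all 3′UTRs, and their median 3′UTR was 3134.5 nt, against 1068 nt. Several of the genes were listed because they are known let-7 targets, so their count is not independent of the choice.

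**Figure D1:**
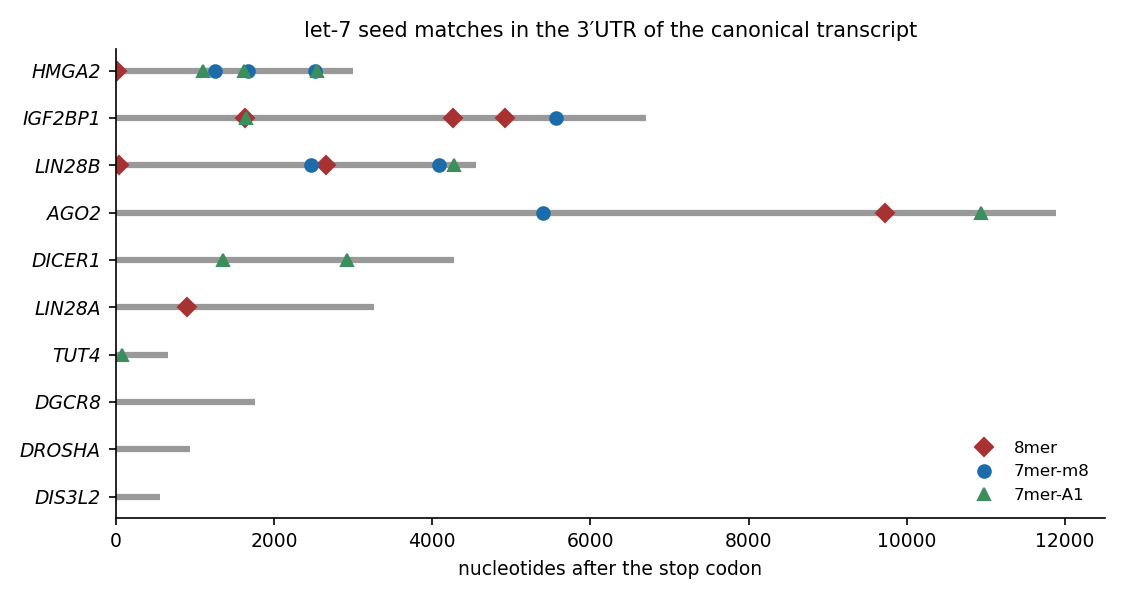
Positions of let-7 seed matches in the 3′UTR of the canonical transcript of each gene, in nucleotides after the stop codon. Grey bars span the 3′UTR and the symbols mark 8mer, 7mer-m8 and 7mer-A1 matches. HMGA2 holds 7 matches in 2999 nt, whereas AGO2 holds 3 in 11888 nt.

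Totals of 8655155 to 12024802 reads were counted on genes in the 3 libraries, and 28828 to 29672 genes had at least 1 read. The authors' counts were converted to TPM, read counts divided by gene length and scaled to the same total in each library, which can be compared between genes. Genes under 0.01 TPM were called nonexpressed and the remaining protein-coding genes were divided into low, medium and high classes of equal size, with limits at 3.35 and 27.0 TPM. All 10 markers of pluripotent cells examined, POU5F1, SOX2 and NANOG among them, were in the high class, at 105 to 1215 TPM. Of 16 markers of ectoderm, mesoderm, endoderm, fibroblasts and trophoblast, NES at 327 TPM and VIM at 108 TPM were in the high class and the other 14 lay between 0.0645 and 25.6 TPM. Levels are averages over all cells of a culture, so more cells with an RNA and more RNA per cell cannot be told apart.

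Of the 10 genes, 8 were in the high class, which held 28.8% of the 19629 protein-coding genes, and TUT4 and DIS3L2 were in the medium class. Each gene kept its class in every replicate. The median of the 10 was 88.5 TPM, beside 11.7 TPM over all expressed protein-coding genes. The levels spanned from DIS3L2 at 9.03 TPM to LIN28A at 2576 TPM.

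**Figure D2:**
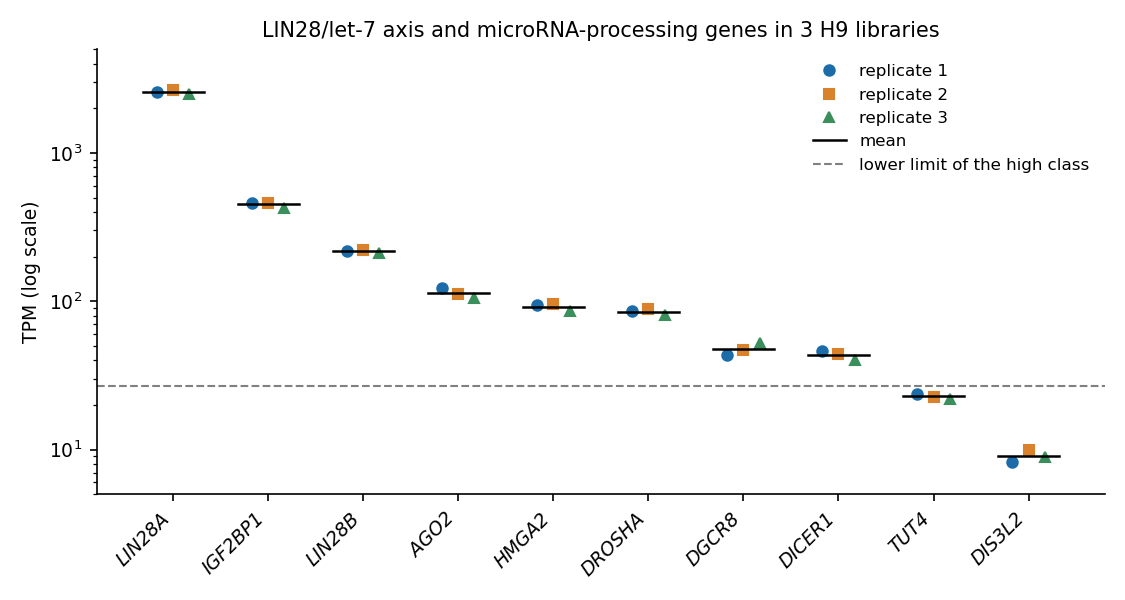
TPM of each gene in each of the 3 H9 replicates, on a log axis, with black bars at the mean and a dashed line at the lower limit of the high class. The replicates lie close together beside the distances between most genes, and TUT4 and DIS3L2 lie under the line.

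LIN28A (ENSG00000131914, chromosome 1, 26410817 to 26429728) had 2575, 2642 and 2512 TPM in replicates 1, 2 and 3, a mean of 2576 ± 64.7 (SD, n = 3). It ranked 20 among all protein-coding genes, or 64 with the canonical transcript in place of the union of exons as gene length. Its reads made up 0.256% of all counted reads in replicate 1 (95% Wilson interval 0.253% to 0.260%), 0.264% in replicate 2 (0.261% to 0.267%) and 0.256% in replicate 3 (0.253% to 0.259%), where the intervals cover counting error only. The next genes above and below in level were H4C2 at 2617 ± 118 TPM and H4C4 at 2554 ± 120 TPM (SD, n = 3). Both encode histone H4, belong to a multigene family whose near-identical copies make their counts uncertain, and overlapped LIN28A in range.

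LIN28B (ENSG00000187772, chromosome 6, 104936616 to 105083332) had 219, 221 and 211 TPM, a mean of 217 ± 5.53 (SD, n = 3), and ranked 609, or 1073 with the canonical length. Its nearest neighbors in level were NOP56, of the small nucleolar ribonucleoprotein, at 217 ± 8.00 TPM and TMEM97, a membrane protein, at 217 ± 16.3 TPM (SD, n = 3), and all 3 overlapped. Within each library LIN28A exceeded LIN28B by 3.56, 3.58 and 3.58 on the log2 scale, a mean of 3.57 ± 0.0123 (SD, n = 3), or 11.9-fold. The difference between the paralogs was far larger than the spread of either, although no test was made. An exact permutation test of 3 against 3 values, which ignores the pairing by library, cannot go below p = 0.10. LIN28A supplied 92.2% of the summed TPM of the pair. In reads, which are not divided by length, the ratio was 7.95.

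The Microprocessor genes were less abundant than the LIN28 genes. DROSHA (ENSG00000113360, chromosome 5, 31400494 to 31532196), the nuclease, had 85.5, 88.7 and 81.4 TPM, a mean of 85.2 ± 3.64 (SD, n = 3). DGCR8 (ENSG00000128191, chromosome 22, 20080221 to 20111877), which holds the primary transcript for DROSHA, had 43.2, 46.9 and 51.9 TPM, a mean of 47.3 ± 4.37 (SD, n = 3). The values of DROSHA lay above those of DGCR8 in every replicate, by 1.80-fold on average. DGCR8 mRNA is itself known to carry hairpins that the Microprocessor cuts, and the microRNA genes MIR3618 and MIR1306 lie within its exons.

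DICER1 (ENSG00000100697, chromosome 14, 95086228 to 95158010), which dices the precursor, had 46.4, 43.9 and 40.4 TPM, a mean of 43.6 ± 3.05 (SD, n = 3). Its range overlapped that of DGCR8. DROSHA exceeded DICER1 by 1.96-fold with the union of exons as gene length and by 1.32-fold with the canonical transcript, and in reads the order was the opposite, with 0.687 reads on DROSHA for each on DICER1. AGO2 (ENSG00000123908), the Argonaute with slicer activity, had 123, 113 and 105 TPM, a mean of 114 ± 9.21 (SD, n = 3).

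The genes that act on the blocked precursor were the lowest of the 10 in TPM. TUT4 (ENSG00000134744, chromosome 1, 52408282 to 52553487), which adds uridines to it, had 23.8, 22.6 and 22.1 TPM, a mean of 22.8 ± 0.915 (SD, n = 3). DIS3L2 (ENSG00000144535, chromosome 2, 231961245 to 232344350), which degrades the uridylated RNA, had 8.30, 9.88 and 8.90 TPM, a mean of 9.03 ± 0.797 (SD, n = 3), from 245, 339 and 224 reads. In TPM neither overlapped the other or the next gene above. In reads, DGCR8 lay below TUT4, with 2707 beside 2904 over the 3 replicates.

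Of the named targets, IGF2BP1 (ENSG00000159217, chromosome 17, 48997385 to 49056145) was second only to LIN28A among the 10, with 461, 462 and 426 TPM, a mean of 450 ± 20.5 (SD, n = 3). HMGA2 (ENSG00000149948, chromosome 12, 65824460 to 65966291) had 94.2, 95.1 and 85.8 TPM, a mean of 91.7 ± 5.15 (SD, n = 3). The 8mer windows of IGF2BP1 and HMGA2 are among those printed above, and both genes were in the high class.

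In order of mean level, the 10 genes ran LIN28A, IGF2BP1, LIN28B, AGO2, HMGA2, DROSHA, DGCR8, DICER1, TUT4 and DIS3L2. Neighbors in this order did not overlap in range, except HMGA2 with DROSHA and DGCR8 with DICER1. AGO2 exceeded HMGA2 by 1.24-fold, with the lowest value of AGO2 at 105 TPM and the highest of HMGA2 at 95.1 TPM. That step turned with the canonical transcript as gene length.

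**Figure D3:**
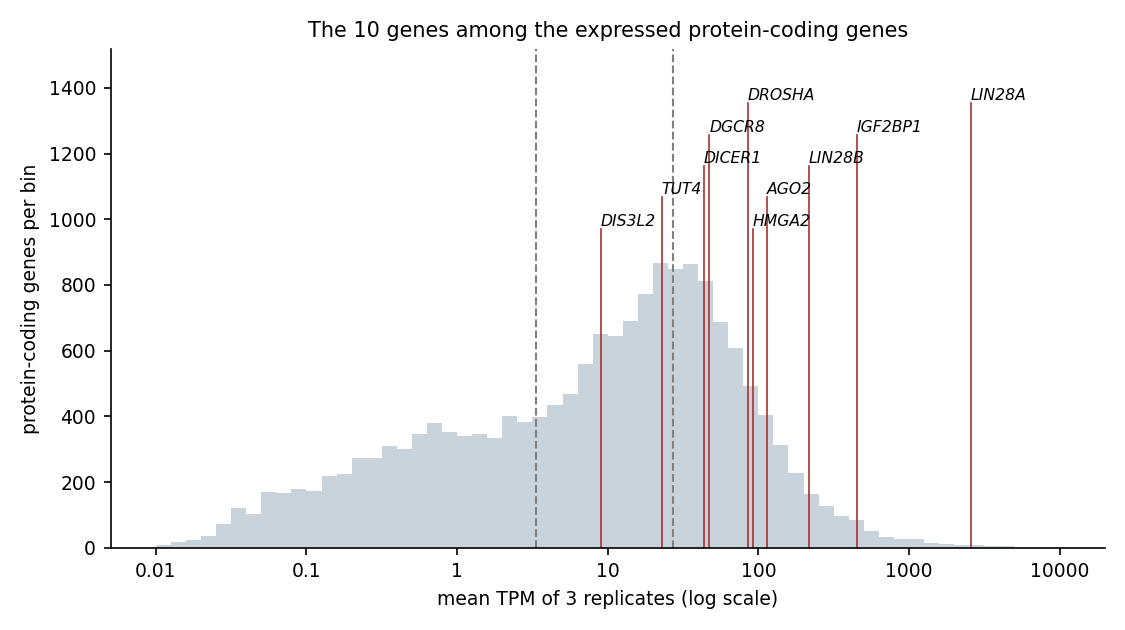
Histogram of the mean TPM of expressed protein-coding genes (log axis), with the 10 genes as red lines and the limits of the low, medium and high classes as dashed lines. LIN28A lies in the far upper tail at 2576 TPM, and DIS3L2 lies below the median of 11.7 TPM.

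The length that divides the counts changed the level of several of these genes. The union of exons was 3.66 times the canonical transcript for HMGA2, 3.37 times for DIS3L2, 2.77 times for TUT4 and 2.13 times for DICER1, against a median of 1.31 over protein-coding genes. For LIN28A the lengths were the same. With the canonical length the levels of expressed protein-coding genes shifted by a median of -0.27 on the log2 scale. Relative to that shift, HMGA2 gained 1.42, DIS3L2 gained 1.30, TUT4 gained 1.01 and DICER1 gained 0.64, whereas LIN28A moved by -0.46 and LIN28B by -0.33. HMGA2 then had 203 TPM and ranked 3 of the 10, TUT4 had 38.1 TPM and entered the high class, and DICER1 at 56.1 TPM lay above DGCR8. LIN28A stayed the highest, at 1555 TPM, and DIS3L2 the lowest, at 18.3 TPM.

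**Figure D4:**
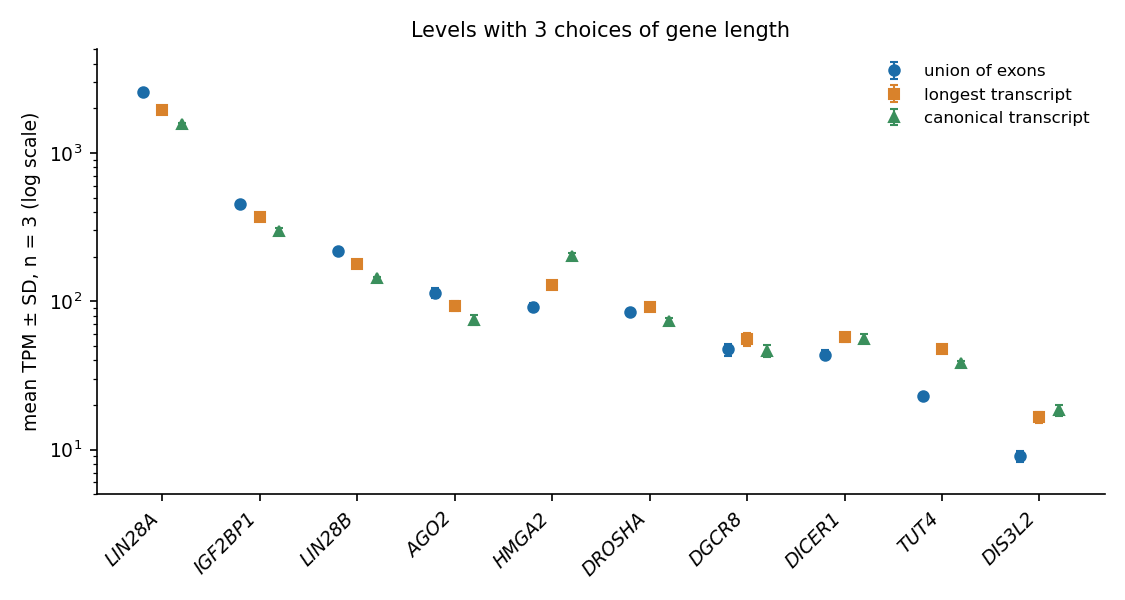
Mean TPM (log axis) of each gene with the union of exons, the longest transcript and the canonical transcript as gene length, with error bars of 1 SD over 3 replicates. HMGA2, TUT4 and DIS3L2 were higher with either single transcript than with the union, and LIN28A was lower.

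The spread between replicates was similar to that of other genes. The coefficient of variation of the 10 genes had a median of 5.08%, and that of all genes in the high class 5.03%. The lowest value was in replicate 3 for 8 of the 10, whereas 48.2% of the 9386 protein-coding genes with at least 100 reads in each replicate were lowest there. The 2 exceptions, DGCR8 and DIS3L2, were lowest in replicate 1. DGCR8 was highest in replicate 3, by 0.20 on the log2 scale over the other replicates, and DIS3L2 in replicate 2, also by 0.20. For DIS3L2 the coefficient of variation was 8.83%, beside 6.19% from counting error alone. The canonical transcripts of DGCR8 and DIS3L2 had a GC content of 54.6% and 54.2%, and those of the other 8 genes between 38.0% and 49.1%. The part of base composition in these differences was not tested.

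Paralogs were compared within each library. HMGA1, the broadly expressed relative of HMGA2, had 3230, 3109 and 3429 TPM and exceeded HMGA2 by 35.5-fold, or by 11.8-fold with the canonical length. Stretches of HMGA1 have near-identical copies in 5 other genes, and those of IGF2BP2 and IGF2BP3 in 3 each, so their counts are uncertain. IGF2BP1 supplied 63.9% of the summed TPM of its family with the union of exons as length. It exceeded IGF2BP2 by 3.46-fold and IGF2BP3 by 3.64-fold, or by 3.05-fold and 2.00-fold with the canonical length. IGF2BP2 at 130 ± 4.42 TPM and IGF2BP3 at 124 ± 4.32 TPM (SD, n = 3) overlapped in range, and the order of those 2 turned with the canonical length.

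Among the Argonautes, AGO1 had 186, 177 and 160 TPM and exceeded AGO2 by 1.53-fold. AGO1 supplied 56.3% of the summed TPM of the 4 genes, AGO2 36.7%, AGO4 4.80% and AGO3 2.25%. TUT4 and its paralog TUT7, which also uridylates precursors, differed by 1.10-fold, with TUT4 at 22.1 TPM in its lowest replicate and TUT7 at 21.9 TPM in its highest, and by 2.55-fold with the canonical length. DIS3L2 was the lowest of its family, beside DIS3 at 40.0 ± 1.17 TPM, a catalytic subunit of the nuclear exosome, and DIS3L at 54.9 ± 4.39 TPM (SD, n = 3), its cytoplasmic counterpart. DIS3 exceeded DIS3L2 by 4.45-fold, and by 1.35-fold with the canonical length. Stretches of DIS3 were at least 90% identical to stretches of 5 other genes, and those of DIS3L to 78. Those of AGO3 were so to 48, of AGO4 to 2 and of AGO1 to 1. The closest for DIS3L and AGO3 were 312 bases each, 91.7% and 90.4% identical. The share of reads affected was not measured, so the counts of these paralogs are uncertain to an unknown extent. The closest stretch for DIS3 was 1048 bases, 100% identical, in BORA on the same chromosome, which had 307, 319 and 230 reads. That for AGO1 was 396 bases, 100% identical, in a lncRNA gene also on its chromosome. Whether these are overlaps of 2 genes at 1 place and not copies was not tested.

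**Figure D5:**
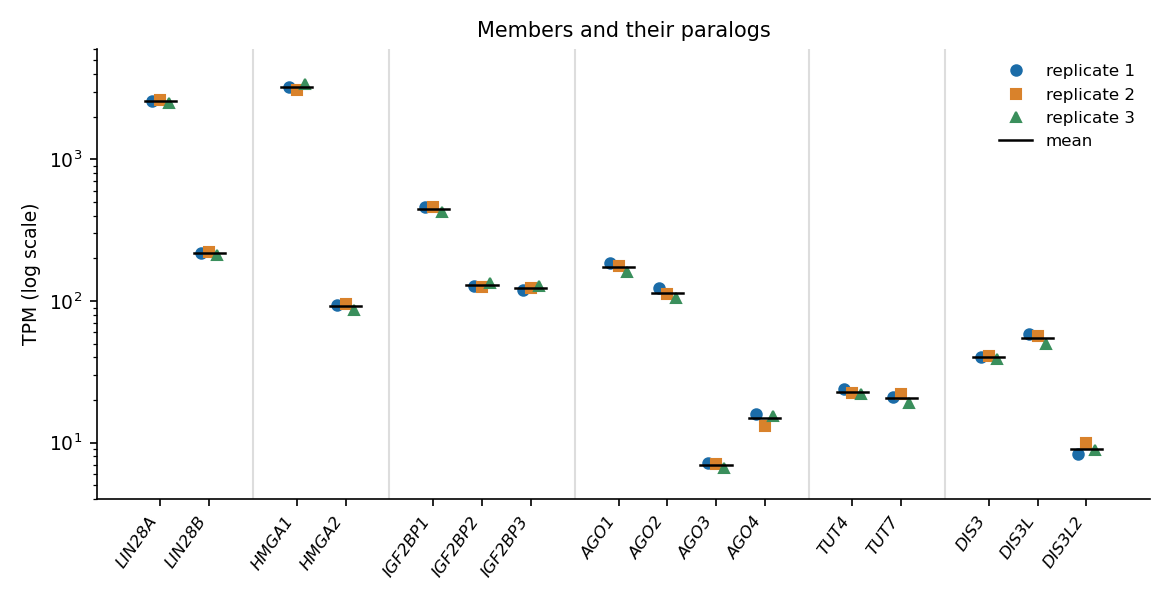
TPM (log axis) of the genes and their paralogs in each of the 3 replicates, with black bars at the mean. LIN28A and HMGA1 each exceed their paralog by over 10-fold, and TUT4 and TUT7 lie side by side.

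Around these genes, 30 genes of microRNA biogenesis and decay were listed, the processing genes above included. In the high class were 19, again beside 28.8% of protein-coding genes, and 11 were medium. All 9 genes of nuclear processing were high, from DGCR8 at 47.3 TPM to the splicing factor gene HNRNPA1 at 674 TPM, which also binds primary microRNAs. Both export genes were high, with XPO5, the exportin that carries precursors, at 103 ± 5.64 TPM and its GTPase RAN at 674 ± 38.2 TPM (SD, n = 3). Of the dicing group 3 of 4 were high, with TARBP2, the partner of DICER1, at 40.4 ± 0.845 TPM, and PRKRA medium at 14.3 ± 0.951 TPM (SD, n = 3). With the canonical length PRKRA had 59.0 TPM, and all 4 were high. Of the 4 Argonautes 2 were high, AGO1 and AGO2, with either length.

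Of the GW182 genes, whose proteins link Argonautes to mRNA decay, 2 of 3 were high, and TNRC6C at 24.4 to 25.7 TPM was medium. With the canonical length TNRC6B was medium too, and 1 of 3 was high. Of the 8 genes of tailing and decay, 1 was high, the exonuclease gene XRN2 at 337 ± 17.4 TPM (SD, n = 3). The other 7 lay between 7.85 and 22.8 TPM. TUT4 at 22.8 TPM, PARN at 22.7 TPM and TENT2 at 22.6 TPM overlapped in range. With the canonical length 3 of the 8 were high, since PARN at 62.8 TPM and TUT4 at 38.1 TPM joined XRN2. The group also held ZSWIM8 at 20.5 TPM, the latter an adaptor for decay of microRNA-bound Argonautes. No test of these groups against each other was made.

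Of 26 known let-7 targets, 25 were in the high class, which held 28.8% of protein-coding genes, and the cell-cycle factor gene E2F2 at 14.1 ± 0.627 TPM (SD, n = 3) was medium. The list was chosen from general knowledge with levels of these data already known in part, and it holds LIN28A, LIN28B, HMGA2, IGF2BP1 and DICER1. TRIM71, which encodes an RNA-binding ubiquitin ligase of stem cells, had 537, 521 and 508 TPM, a mean of 522 ± 14.5 (SD, n = 3), above IGF2BP1. CCND1 at 464 ± 2.31 TPM, the G1 cyclin D1, and MYCN at 116 ± 1.86 TPM (SD, n = 3), a proliferation factor, were also high. A seed match was present in the canonical 3′UTR of 24 of the 26, beside 15.9% of all genes with a 3′UTR, and known targets are in large part identified by such matches.

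The let-7 genes themselves gave almost no reads. Counts were at hand for 10 of the 12 hairpin genes, and MIRLET7A3 and MIRLET7B were not analysed here. None had more than 3 reads in every replicate, 6 had at least 1 read in some replicate, and 4, among them MIRLET7C and MIRLET7I, had none. In all 17 reads were counted, 3, 10 and 4 in replicates 1, 2 and 3, and 5 of those in replicate 2 lay on MIR98. A count of 0 allows up to 3 reads, or 0.289, 0.249 and 0.347 CPM (reads of each library scaled to the same total) in the 3 libraries. The hairpins are shorter than most RNA-seq fragments, so these reads say nothing of the level of mature let-7, which was not measured.

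Longer transcripts that hold let-7 hairpins could be counted. MIRLET7A1HG, the host of the let-7a-1 cluster, had 36, 48 and 45 reads, or 2.97, 3.41 and 4.35 TPM. MIRLET7BHG had 6, 16 and 9 reads, and MIRLET7IHG had 29, 45 and 26. MIR99AHG and MIR100HG, which hold let-7c and let-7a-2, had at most 0.142 TPM in any replicate.

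The protein-coding hosts HUWE1 at 151 ± 16.5 TPM and WDR82 at 145 ± 9.97 TPM (SD, n = 3) have functions of their own, so that their level cannot be read as that of the hairpin within. For comparison, MIR302CHG, host of the microRNA cluster known for embryonic stem cells, had 271, 331 and 377 TPM, all above the let-7 host transcripts without a coding function. MIR17HG, host of a proliferation-linked cluster, had 9.62, 11.2 and 13.6 TPM. With the canonical length the means of most noncoding hosts were higher, at 715 TPM for MIR302CHG and 120 TPM for MIR17HG, beside 16.0 TPM for MIRLET7A1HG, 2.68 TPM for MIRLET7BHG, 0.855 TPM for MIR100HG and 0.217 TPM for MIR99AHG. MIRLET7IHG, whose length is the same in both, had 0.873 TPM in place of 1.45.

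Some counts may hold reads of other genes, since no source used here says whether reads were counted by strand. Exons of other genes covered 9.57% of the exon length of DGCR8, 5.38% of that of DIS3L2, 3.05% of that of LIN28B and 2.55% of that of HMGA2, and none of that of LIN28A, DROSHA and TUT4. For DGCR8 most of it was an antisense lncRNA (ENSG00000243762) with 91, 113 and 86 reads of its own, beside 824, 1039 and 844 on DGCR8. The antisense genes of LIN28B and HMGA2 had at most 26 reads in any replicate. Stretches of LIN28A had near-identical copies in 6 other genes, so its count is uncertain to that extent. The closest copies of LIN28A, LIN28B, DICER1 and DIS3L2 elsewhere in the annotation were pseudogenes with 0 reads in every replicate, and that of LIN28A, LIN28AP1, was 93.3% identical over 405 bases.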

How the data were processed

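Ribosomal RNA was depleted from total RNA of untreated H9 cells, and 3 replicates were sequenced. Per the labels and the methods of the study, reads were trimmed with Trim Galore 0.4.4 and aligned to GRCh38 with TopHat2 2.1.1. The deposited values are raw counts of reads per Ensembl gene, which the authors did not normalize. How reads were counted (tool, gene models, strand) is not given in the sources used here. Of 58051 identifiers, 56948 matched GENCODE release 44, on the same build. TPM was computed from the counts with the union of a gene's exons as length. The study's own TPM came from Cufflinks 2.2.1 and was not used here. The study's thresholds (nonexpressed below 0.01 TPM, then 3 quantiles) were applied to the TPM computed here, over protein-coding genes alone, which the study does not state. Values are means ± SD over replicates, and no test was made. Library totals were 8655155 to 12024802. The precision of a count depends on the gene's own reads. The coefficient of variation from counting error alone was 0.617% for LIN28A and 6.19% for DIS3L2.

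The genes described and the lists around them were chosen with earlier results of these data known. The text names these 10 genes and any gene of the fixed lists of biogenesis and decay genes, let-7 targets, paralogs, let-7 loci, hosts and markers, and the genes next in level to LIN28A and LIN28B. MicroRNA sequences are from RefSeq (GRCh38.p14) and 3′UTRs from GENCODE. Similar stretches were alignments of at least 100 bases and 90% identity between canonical transcripts by blastn 2.17.0. Genes that overlap at the same place were not left out. The listed host MIR125B1HG had no match in the annotation. Alternatives were other gene lengths, CPM, TMM factors from edgeR 4.0.16, DESeq2 1.42.0 size factors, other class rules, motif rules and leaving out each replicate. Scripts ran in R 4.3.3 and Python 3.11.15 (scipy 1.17.1, pandas 2.3.3, numpy 2.4.6, matplotlib 3.10.9) and were tested on simulated data.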

Additional observations from a re-analysis of the deposited data

How the results depend on the processing

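The median of the 10 genes, 88.5 TPM, became 74.2 with the canonical transcript as length and 285 as CPM, which is not divided by length. The log2 ratio of LIN28A to LIN28B, 3.57, became 3.45 with the longest or the canonical transcript and 2.99 as CPM. With more than 0 reads required in place of more than 3, 1 let-7 locus, MIRLET7F1, passed in every replicate. The number of the 10 genes in the high class, 8, was 9 with the longest or canonical transcript or as CPM and 10 when all genes were classified. Biogenesis and decay genes in that class numbered 18 to 28 over the alternatives, and 7 genes with a seed match became 5 with 8mers only. Of the mean TPM of the 10 genes, 9 moved by more than 1 SD with the canonical length (4 higher, 5 lower), 10 with the longest transcript (6 higher, 4 lower) and 3 with mitochondrial genes left out (all higher), and none with TMM or DESeq2 factors. With 3 replicates, dropping 1 always shifts the mean by less than 1 SD, so those shifts say nothing of stability. No paired comparison of conditions was possible because there is 1 group. Ratios between genes were taken within each library. For the let-7 loci, counts of 0 to 5 reads allow no statement on level.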
